A study of Mus musculus with 69 samples.

Results

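The 45 cell cycle and mitosis genes described here are a fixed list of protein-coding genes that act in DNA replication and cell division, grouped by what their products do. They are 45 of 55964 gene identifiers in the deposited tables, all 45 were found, and they lie on 17 chromosomes. The 69 RNA-seq libraries came from pituitary, hypothalamus and ovary of female C57BL/6J mice carrying the normal *Zeb1* gene (WT), 1 knock-in allele (Zeb1_200H) or 2 knock-in alleles (Zeb1_200M). In the knock-in allele, point mutations in the germline remove the miR-200a/b sites of the *Zeb1* 3′ UTR, so every cell of a Zeb1_200M mouse carries them. The mice came from lines derived from independent embryonic stem cell clones. Some mice of the breeding trial came from an intercross of these lines. One cohort (young) held virgin mice of 8 to 12 weeks, and the other (older) held mice of 28 to 36 weeks taken after a breeding trial. Both were killed in proestrus. Each group had 4 mice, apart from young WT pituitary, older Zeb1_200M pituitary and older Zeb1_200M hypothalamus with 3.

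Cells divide by passing through G1, S, G2 and mitosis in a fixed order. In G1, cyclins D and E with their kinases lift the retinoblastoma proteins from E2F factors, which switch on the genes of replication. Later, cyclins A and B with CDK1, together with the MYBL2 and FOXM1 transcription factors, bring on the genes of mitosis, and the anaphase-promoting complex ends mitosis by marking cyclin B and other proteins for destruction. Kinase inhibitors such as p21, p27 and p18 hold cells in G1. In the adult ovary, granulosa cells of growing follicles divide fast and stop when they luteinize. The adult pituitary renews its cells slowly, and most neurons of the hypothalamus do not divide.

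The members were set in 8 role groups. The G1 group held *Ccnd1*, *Ccnd2* and *Ccne1* (cyclins D1, D2 and E1) and *Cdk2*. The transcription factors were *E2f1*, *Mybl2* and *Foxm1*. Origin licensing and replication held 10 genes, namely *Cdc6* and *Cdt1*, which load the MCM helicase, *Mcm2* to *Mcm7*, which encode it, *Cdc45*, its partner, and *Pcna*, the sliding clamp of DNA polymerase. Deoxynucleotide supply held *Rrm1*, *Rrm2* and *Tyms*. The 9 mitotic cyclins, kinases and checkpoint genes were *Ccna2*, *Ccnb1*, *Ccnb2*, *Cdk1*, *Plk1*, *Aurka*, *Aurkb*, *Bub1* and *Bub1b*. *Cdc20* activates the anaphase-promoting complex and *Ube2c* is its ubiquitin-conjugating enzyme. The 11 spindle, kinetochore and chromosome genes included the motors *Kif11*, *Kif20a* and *Kif23*, the kinetochore genes *Cenpa*, *Cenpe* and *Cenpf*, the spindle factors *Tpx2* and *Nusap1*, *Birc5*, the topoisomerase *Top2a* and *Mki67*, whose product Ki-67 marks dividing cells. The inhibitors were *Cdkn1a* (p21), *Cdkn1b* (p27) and *Cdkn2c* (p18).

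RefSeq promoter windows on GRCm38.p6, from 250 bases before to 50 after the start, were at hand for 37 of the 45 genes, the others being *Ccnd1*, *Ccnd2*, *Foxm1*, *Mcm4*, *Ccna2*, *Aurkb*, *Kif20a* and *Tpx2*. Short stretches of 30 bases are shown for genes whose levels are given below, and for *Mcm6* as a further E2F core. The first 7 hold TTTGAA or its reverse complement TTCAAA in capitals (the core of the cell cycle genes homology region, a sequence of late cell cycle promoters), the next 2 hold TTGGCGC or its reverse complement GCGCCAA (an E2F core), and the last holds CAGGTG (an E-box of the kind ZEB1 binds). Each is written 5′ to 3′ on the strand of its gene.
Mki67: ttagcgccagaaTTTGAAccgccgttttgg
Top2a: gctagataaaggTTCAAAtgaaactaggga
Cdk1: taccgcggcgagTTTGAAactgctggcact
Ccnb2: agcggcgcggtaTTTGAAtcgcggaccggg
Kif23: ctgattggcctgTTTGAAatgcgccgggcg
Cenpf: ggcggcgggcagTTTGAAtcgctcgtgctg
Mcm2: agggctcagcctTTTGAAagctgtgggcgg
Mcm5: gttagctgctaGCGCCAAgaactttcgcgc
Mcm6: attggacgggtTTGGCGCgaagtagctcag
Cdkn1a: aagagaatagccCAGGTGtgggggagggga

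The stretches lie at chr7:135716478-135716507 (*Mki67*, minus strand), chr11:99024195-99024224 (*Top2a*, minus), chr10:69352910-69352939 (*Cdk1*, minus), chr9:70421533-70421562 (*Ccnb2*, minus), chr9:61946780-61946809 (*Kif23*, minus), chr1:189688067-189688096 (*Cenpf*, minus), chr6:88898833-88898862 (*Mcm2*, minus), chr8:75109334-75109363 (*Mcm5*, plus), chr1:128359733-128359762 (*Mcm6*, minus) and chr17:29093570-29093599 (*Cdkn1a*, plus). The motifs of *Kif23* and *Cenpf* began 2 bases after the start and that of *Mki67* 116 bases before it. Searched on both strands, TTTGAA stood in 15 of the 37 promoters (40.5%), against 20.2% of the promoters of 27025 genes. It stood in 5 of 7 promoters of the mitotic cyclins, kinases and checkpoint genes, in both promoters of the anaphase-promoting complex partners, in 6 of 9 spindle and kinetochore promoters, in 2 of 9 licensing promoters and in none of the 3 inhibitor promoters. CCAAT stood in 28 promoters (75.7% against 41.1% of all). The E2F cores TTCCCGC or TTGGCGC stood in 12 (32.4% against 7.79%), 6 of them among 9 licensing genes. CAGGTG stood in 3 (8.11% against 22.6%), those of *Tyms*, *Nusap1* and *Cdkn1a*. CAGGTA, which the ZEB1 consensus CAGGTR given by the authors also takes in, was not searched. The TTGGCGC of *Mcm3* overlaps its own reverse complement. A match says only that the letters are there.

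Gene counts summed to 3321845 to 5143128 reads per library in young hypothalamus, the shallowest set, and to 4527753 to 14655095 reads in all other libraries. Levels are given in CPM, the usual depth-scaled read count of a gene, after TMM scaling over the libraries of a tissue and cohort, and a gene is called where its adjusted p from edgeR's quasi-likelihood test over all genes of the comparison was under 0.05. All adjusted p-values below come from that test. The tissues held their own markers. In young WT libraries all 10 hormone and lineage markers of the pituitary were above 1 CPM there and 8 of them were under 1 CPM in the ovary, no granulosa cell marker was under 1 CPM in the ovary, and 2 of 10 hypothalamus markers were under 1 CPM in the hypothalamus against 9 of 10 in the other tissues. *Zeb1* itself was raised in Zeb1_200M pituitary, with a log2 fold change of 0.52 in young mice and 0.55 in older mice, and was not called in ovary or hypothalamus. The young and older cohorts also differ in library chemistry (ribosomal RNA depletion with strand against poly(A) selection without strand) and in gene counting, so that age, breeding history and method cannot be told apart between them. The older tables were counted without strand, and exons of 11 members overlap an antisense gene, over 20 percent of the exon length for *Ccnd1* (with LTO1, 21.9%), *Ube2c* (with Tnnc2, 22.8%) and *Kif20a* (with Cdc23, 31.8%); reads from such partners cannot be separated there. *Ccnb1*, *Ccnb2*, *Tyms* and *Pcna* have pseudogenes with which reads may have been shared.

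In young WT mice the members were highest in the ovary. Against the pituitary, 41 of 45 were raised in the ovary and 2 lowered, with a median log2 difference of 2.21, where 68.3 percent of all genes tested were called. *Mki67* was higher by 2.42 ± 0.12 (log2 ± SE, n = 4 ovaries and 3 pituitaries, adjusted p = 9.6e-11), *Top2a* by 2.56 ± 0.15 (adjusted p = 3.5e-10) and *Ccnb1* by 3.48 ± 0.19 (adjusted p = 1.845e-10). The 2 exceptions were the D cyclins, *Ccnd1* at −2.28 ± 0.10 and *Ccnd2* at −1.15 ± 0.07. *Ccne1* and *Cdkn2c* were not called. Members such as *Cdk1*, *Aurkb* and *Mybl2* had as few as 8, 6 and 4 reads in a WT pituitary. They passed the filter on low counts through the ovary, where they are high, and the count and median take them in. Such members apart, the ovaries held more RNA of most replication and mitosis genes, and the pituitaries more D cyclin RNA. In bulk tissue, fewer cells of a type and less RNA per cell cannot be told apart.

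Against the hypothalamus, 43 of 45 were raised in the ovary and *Ccne1* was lowered by 1.10, with a median of 3.85 and 76.7 percent of all genes called. Of these members, 21 had hypothalamus means under 1 CPM and so passed the filter on low counts through the ovary, where they are high. The count and median are therefore not read as a result. *Ccnd1* differed by −0.19 ± 0.11 and was not called. Between pituitary and hypothalamus 29 members passed the filter on low counts and 16 did not, where 72.2 percent of all genes were called. The filter asks for counts in as few libraries as the smaller group holds, and 8 of the 29 had hypothalamus means under 1 CPM and so passed through the pituitary, where they are high. No count or median over the 29 is therefore read. With no filter all 45 were tested, and 36 were raised in the pituitary and 1 lowered. That count takes in the members near 0 in the hypothalamus and is not read either. *Ccnd2*, with ample reads in both tissues, was higher in the pituitary by 4.08 ± 0.07, and *Ccne1* was lowered there.

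Levels between genes were compared per kilobase of exon. In the ovary *Cdkn1b* stood at 88.2 ± 15.1 (SD, n = 4) and *Ccnd2* at 77.9 ± 5.84 CPM per kb, within each other's spread, ahead of *Top2a* at 19.5 ± 2.93 and *Mki67* at 19.3 ± 2.81, which did not differ beyond their spread either. In the pituitary the order was *Ccnd2* at 152 ± 2.46 (n = 3), *Cdkn1b* at 62.7 ± 1.59 and *Ccnd1* at 52.0 ± 4.17 CPM per kb, with *Pcna* next at 7.27 ± 0.81. In the hypothalamus *Cdkn1b* led at 23.3 ± 1.44 (n = 4), followed by *Ccnd1* at 11.3 ± 0.36 and *Ccnd2* at 8.57 ± 0.87 CPM per kb. *Mki67* and *Top2a* stood at 3.15 and 2.89 CPM per kb in the pituitary and at 0.254 and 0.163 in the hypothalamus. These 2 genes were thus far below *Ccnd2* and *Cdkn1b* in all 3 tissues. *Pcna* was closer to *Ccnd2* in the hypothalamus, at 6.2 ± 1.02 CPM per kb.

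**Figure D1:**
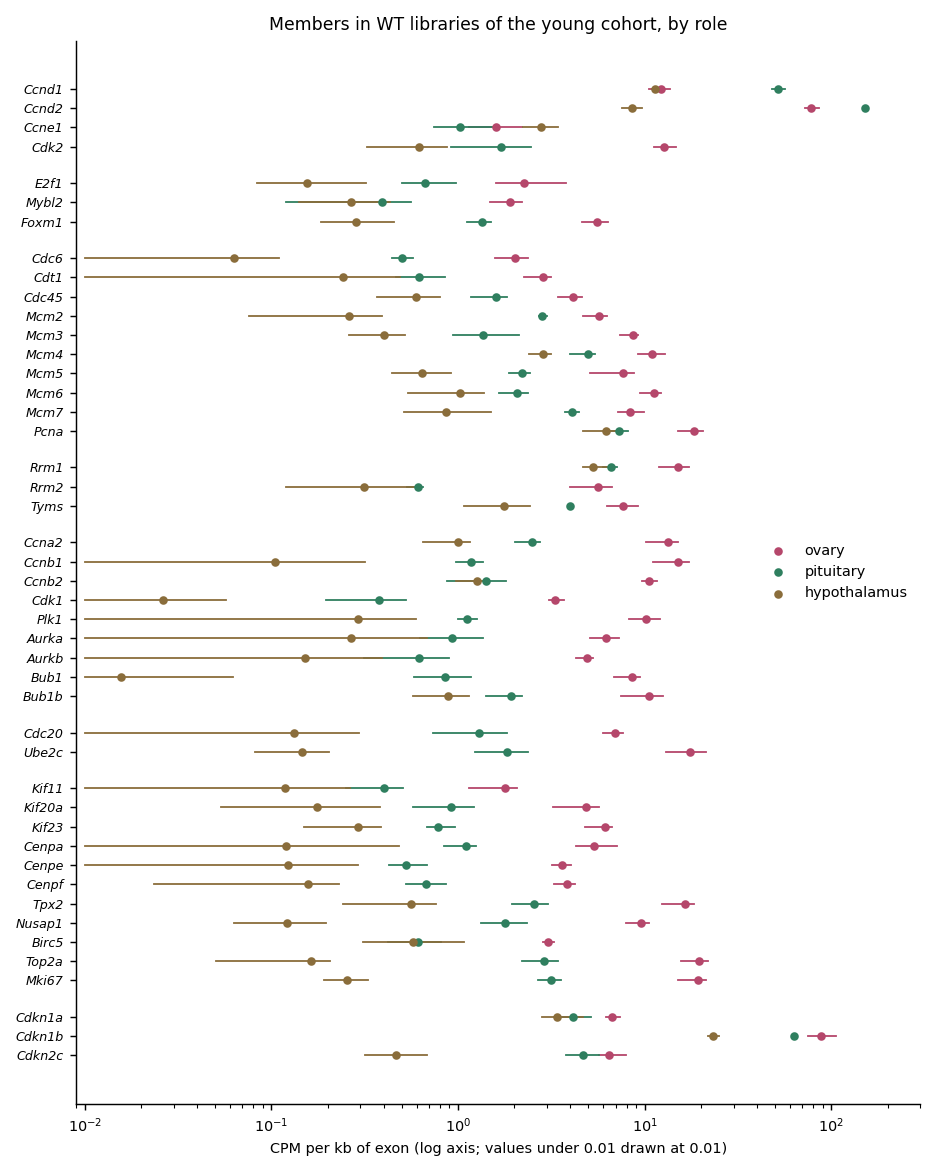
Level of each of the 45 members in young WT ovary, pituitary and hypothalamus, in CPM per kb of exon on a log axis, with genes in role order from G1 cyclins at the top to inhibitors at the bottom. Points are means and lines run from the lowest to the highest library; the ovary lies to the right for most genes, and *Ccnd1* and *Ccnd2* lie farthest right in the pituitary.

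In the young pituitary, several genes of mitosis and a few of S phase were lower in Zeb1_200M mice than in WT. Of the 45 members, 43 passed the filter on low counts (*Aurkb* and *Cdk1* did not), 13 were lowered and none was raised, where 21.5 percent of all genes tested were called and 10.0 percent were lowered. The 43 had a median log2 fold change of −0.58, against 0.00175 over all genes, and 37 of them were below 0. The filter asks for counts in only as many libraries as the smaller group holds. *Kif11*, counted in the 13, passed it through the WT libraries, where it is high. With no filter all 45 were tested and 14 were called.

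*Mki67* was the clearest case among widely used markers of dividing cells. It stood at 26.8, 32.4 and 36.0 CPM in the 3 WT pituitaries, at 6.52, 12.2, 12.4 and 21.3 CPM in Zeb1_200H, and at 5.43, 10.6, 13.9 and 20.4 CPM in Zeb1_200M. All 8 mutant pituitaries were below all WT ones, and the mutant groups overlapped each other. The fold change of *Mki67* (ENSMUSG00000031004, chr7:135689784-135716361 in mm10) in Zeb1_200M was −1.38 ± 0.27 (log2 ± SE, adjusted p = 0.0022), and 70 to 167 reads stood behind each Zeb1_200M value.

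*Tpx2*, which activates Aurora A on the spindle, had the smallest p of the members. Its CPM values were 8.47, 11.6 and 13.2 in WT, 2.87, 5.07, 6.21 and 8.20 in Zeb1_200H, and 3.10, 3.82, 3.83 and 7.03 in Zeb1_200M. Its fold change of −1.37 ± 0.25 (adjusted p = 0.0011) left no overlap between WT and either mutant group. *Ccna2*, the cyclin of S phase and G2, stood at 7.37, 9.71 and 9.94 CPM in WT and at 3.41, 4.20, 5.08 and 6.29 CPM in Zeb1_200M, a fall of 0.96 ± 0.21 (adjusted p = 0.0048) without overlap. *Top2a*, which untangles sister chromosomes, stood at 11.4, 15.9 and 17.9 CPM in WT and at 2.25, 5.41, 6.52 and 10.6 CPM in Zeb1_200M (log2 fold change −1.34 ± 0.32, adjusted p = 0.0077). The same library, Zeb1_200M replicate 4, had the highest value of the Zeb1_200M group for *Mki67*, *Tpx2*, *Ccna2* and *Top2a*.

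The other members lowered in Zeb1_200M were *Mcm5* (−0.82), *Kif11* (−1.56), *Cenpe* (−0.98), *Ccnd2* (−0.18), *Mcm2* (−0.54), *Ube2c* (−1.19), *Bub1* (−1.22), *Ccnd1* (−0.29) and *Foxm1* (−0.80), all log2 fold changes. *Kif11* rested on 11 to 24 reads in WT and 4 to 11 reads in Zeb1_200M and passed the filter through the WT libraries, where it is high. Its fold change is at the limit of this depth. *Mcm5* stood at 6.49, 8.07 and 8.35 CPM in WT and at 3.65, 4.05, 4.08 and 5.92 CPM in Zeb1_200M. Of the 13, the D cyclins had the smallest fold changes and the most reads. *Ccnd2* stood at 1003, 1020.0 and 1036 CPM in WT and at 882, 883, 887 and 954 CPM in Zeb1_200M. *Ccnd1* stood at 181, 191 and 211 CPM in WT and at 142, 150.1, 166 and 182 CPM in Zeb1_200M, where the groups overlapped by 1 library.

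**Figure D2:**
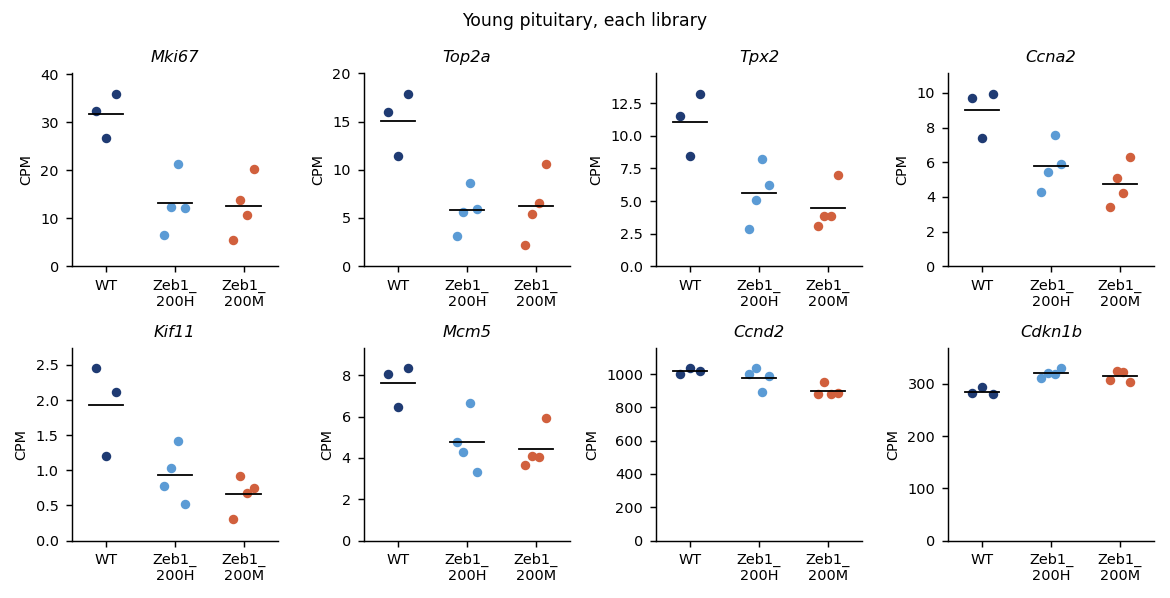
CPM of 8 members in each young pituitary, with WT, Zeb1_200H and Zeb1_200M side by side, each axis starting at 0; points are libraries and bars are group means. *Mki67*, *Top2a* and *Tpx2* have every mutant point below every WT point, while *Cdkn1b* does not fall.

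The role groups had different medians. The 11 spindle, kinetochore and chromosome genes were all below 0 with a median of −0.96 and 5 of them lowered, *Kif11* among these. The 7 tested mitotic cyclins, kinases and checkpoint genes were all below 0 with a median of −0.90 and 2 lowered. Of 10 licensing and replication genes 2 were lowered, with a median of −0.47. No gene of deoxynucleotide supply was called, with *Rrm1* at 0.15, *Tyms* at 0.04 and *Rrm2* at 0.00 to 2 decimals. *Pcna* stood at 9.94, 10.8 and 12.4 CPM in WT and at 9.74, 10.0, 10.6 and 11.6 CPM in Zeb1_200M, with overlapping groups and a log2 fold change of −0.08 ± 0.14. *E2f1* (−0.07), *Mybl2* (0.16) and *Mcm4* (0.03) also had values near 0.

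None of the 3 inhibitors was called in the young Zeb1_200M pituitary. *Cdkn1b* stood at 280.1, 283 and 294 CPM in WT, at 312, 319, 321 and 330.1 CPM in Zeb1_200H, and at 304, 307, 322 and 325 CPM in Zeb1_200M. Both mutant groups lay above WT without overlap, but the log2 fold change of 0.14 ± 0.05 in Zeb1_200M missed the threshold (adjusted p = 0.0939). *Cdkn1a* was at 0.02 ± 0.22 and *Cdkn2c* at −0.31 ± 0.18.

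In Zeb1_200H the same tissue gave 9 lowered members and none raised of 45 tested, with a median of −0.47, where 12.3 percent of all genes were called and 5.72 percent were lowered. They were *Top2a* (−1.39 ± 0.26, adjusted p = 0.0031), *Mki67* (−1.30 ± 0.26, adjusted p = 0.0053), *Cenpf* (−1.10 ± 0.25, adjusted p = 0.0113), *Foxm1* (−0.79 ± 0.20, adjusted p = 0.0217), *Tpx2* (−1.01), *Ube2c* (−1.25), *Nusap1* (−0.93), *Mcm2* (−0.53) and *Ccnb1* (−1.03). *Top2a* was at 3.13, 5.67, 5.90 and 8.60 CPM in Zeb1_200H, all below the lowest WT value. *Cenpf*, a kinetochore protein of G2 and mitosis, was at 5.83, 7.04 and 9.62 CPM in WT and at 2.35, 3.54, 3.95 and 4.25 CPM in Zeb1_200H. *Foxm1* was at 5.21, 6.60 and 6.98 CPM in WT and at 3.30, 3.61, 3.73 and 3.95 CPM in Zeb1_200H. *Ccnb1*, cyclin B1, was at 2.42, 2.96 and 3.37 CPM in WT and at 0.869, 1.52, 1.66 and 1.72 CPM in Zeb1_200H, and its adjusted p of 0.04998 stood just inside the threshold. This call was lost in all 7 fits without 1 library, with DESeq2, with no filter and with all 3 genotypes in one fit.

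The comparison of Zeb1_200M with Zeb1_200H called none of 42 members by edgeR or DESeq2, none at an unadjusted p under 0.05 either, with a median of −0.09, and 0.0383 percent of all genes were called. *Cdk1* was among the genes below the filter in the Zeb1_200M comparison. It stood at 0.88, 1.80 and 2.35 CPM in WT, at 0.608, 0.828, 0.911 and 1.03 CPM in Zeb1_200H, and at 0.233, 0.6, 0.749 and 0.864 CPM in Zeb1_200M, from 3 to 23 reads. Its fold change is left as untested there, at the limit of this depth.

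Summed over the 40 members other than the inhibitors and D cyclins, the young pituitaries held 233 to 289.5 CPM in WT, 166 to 229.9 CPM in Zeb1_200H and 151 to 226 CPM in Zeb1_200M, so that the ranges did not overlap with WT. The count of calls leaned on single libraries. It was 13 for Zeb1_200M with all libraries and 6 without the WT library whose column number matches no sample title or without Zeb1_200M replicate 3, 7 without Zeb1_200M replicate 1, and 8 without WT replicate 1. For Zeb1_200H it was 9 with all libraries, 2 without that WT library, and 4 without WT replicate 1 or without Zeb1_200H replicate 1, 2 or 4. In Zeb1_200M, *Mki67*, *Tpx2*, *Ccna2* and *Top2a* were called whichever library was left out, and in Zeb1_200H *Mki67* and *Top2a* were. DESeq2 called 9 members in Zeb1_200M and 7 in Zeb1_200H, and with it the Zeb1_200M calls on *Top2a* (adjusted p = 0.0696), *Bub1*, *Foxm1* and *Mcm2* were lost.

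**Figure D3:**
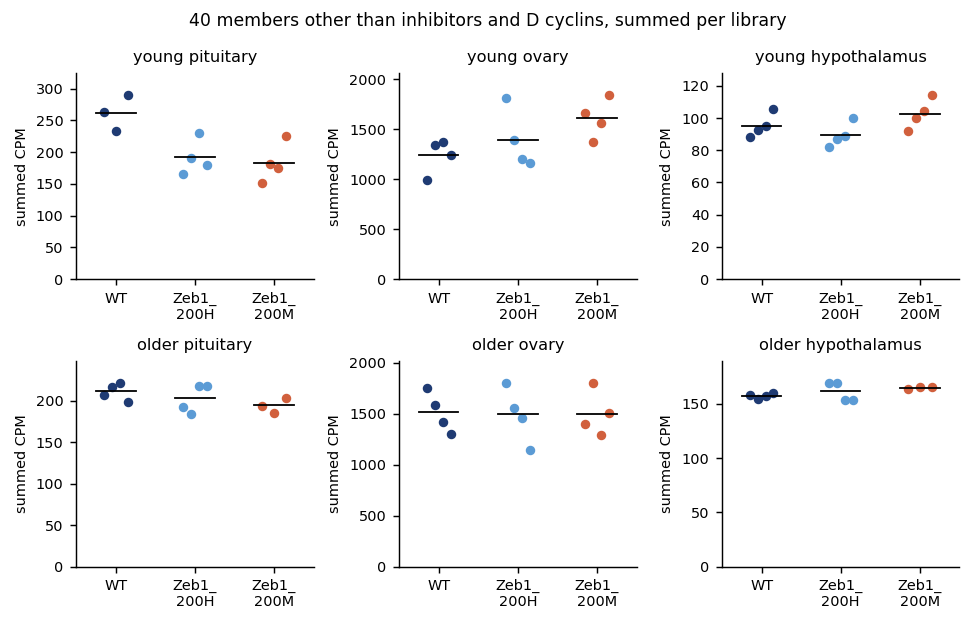
Summed CPM of the 40 members other than inhibitors and D cyclins in each library, by tissue (columns) and cohort (rows), each axis starting at 0; points are libraries and bars are group means. The young pituitary has WT at 233 to 289.5 above both mutant groups, the young ovary has Zeb1_200M at 1372 to 1841 above WT at 996 to 1369, and older hypothalamus has Zeb1_200M at 163.7 to 165.6 above WT at 154.8 to 159.7; in the other panels Zeb1_200M and WT overlap.

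Other genes of the cell cycle, were taken as a list of 106 that holds no member, and in the young Zeb1_200M pituitary more of them were lowered than raised. Of 90 tested, 23 were lowered and 3 raised, with a median of −0.44. *Kif18a*, a kinesin that aligns chromosomes, fell by 1.65 on the log2 scale, *Pkmyt1*, which restrains CDK1, by 1.46, and *Cdk4*, the partner of the D cyclins, by 0.49. In Zeb1_200H 14 of 86 were lowered and 1 raised, with a median of −0.30. Histone genes taken by symbol pattern, most of them made in S phase, gave 15 lowered and none raised of 34 tested in Zeb1_200M, with a median of −0.50. *H3c14* was at −0.95, *H1f3* at −1.86 and *H1f4* at −0.93, and the pattern also took in *H1f0*, a linker histone not tied to replication, at −0.50. Of 11 tested p53 target genes, 4 were lowered and 1 raised, with *Zmat3* at −0.44, *Trp53inp1* at −0.30 and *Ccng1*, cyclin G1, at −0.27.

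Markers of cell types moved in the same libraries. Of 10 hormone and lineage markers, 4 were lowered and 1 raised in young Zeb1_200M pituitary, with *Prl* at −1.61, *Lhb* at −1.68 and *Cga* at −0.67. Their summed level was 161300 to 184800 CPM in WT and 66340 to 88880 CPM in Zeb1_200M. *Prl* alone had a WT mean of 141000 CPM, so the sum says little of the other markers. Of 7 tested macrophage markers, 3 were raised, and the list summed to 40.8 to 49.0 CPM in WT and 60.4 to 73.2 CPM in Zeb1_200M. None of 7 tested pituitary stem cell markers was called, at summed levels of 147 to 179 CPM in WT and 148 to 165 CPM in Zeb1_200M. Endothelial markers had no call among 8, at 201 to 229 CPM in WT and 235 to 257 CPM in Zeb1_200M. No marker of these lists was at 0 in all young pituitaries. Their part in the results on the members was not tested.

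In the older pituitary most mitotic genes were near the limit of counting in every group. *Mki67* stood at 1.79, 1.97, 2.80 and 3.20 CPM in WT, at 1.16, 1.81, 6.14 and 6.47 CPM in Zeb1_200H, and at 1.16, 2.05 and 3.14 CPM in Zeb1_200M, and all groups overlapped. In the young WT pituitaries it had stood at 26.8 to 36.0 CPM, and *Ccnb1*, counted in every young pituitary, had at most 2 reads in any older one. Age cannot be told apart from library chemistry or gene counting here. *Ccnb1* has pseudogenes with which reads may have been shared. In WT ovary too it stood at 27.6 to 43.05 CPM in the young and 5.99 to 10.0 CPM in the older cohort. *Cdk1* went the other way there, at 13.8 to 16.4 and 32.3 to 42.6 CPM. Of the 45 members, 32 passed the filter for Zeb1_200M against WT.

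Of those 32, *Mcm2* and *Ccnd1* were lowered and *E2f1* was raised, with a median of −0.21, where 21.4 percent of all genes were called. *Mcm2*, a subunit of the replicative helicase, stood at 27.2, 27.9, 31.9 and 34.6 CPM in WT, at 15.5, 21.9, 23.0 and 23.6 CPM in Zeb1_200H, and at 18, 18.4 and 19.4 CPM in Zeb1_200M. Every mutant value was below every WT value. The log2 fold change of *Mcm2* (chr6:88883474-88898780 in mm10) against WT was −0.69 ± 0.12 (adjusted p = 0.0017) for Zeb1_200M, and for Zeb1_200H it was −0.53 ± 0.14 (adjusted p = 0.0270).

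*Ccnd1* stood at 80.9, 94.1, 100.2 and 106 CPM in WT and at 66.1, 69.3 and 71.2 CPM in Zeb1_200M, without overlap (−0.45 ± 0.10, adjusted p = 0.0071). *E2f1*, the factor that starts S phase genes, stood at 1.42, 1.66, 1.66 and 3.20 CPM in WT and at 3.27, 3.87 and 4.18 CPM in Zeb1_200M, from 12 to 30 reads. Its rise of 1.02 ± 0.30 (adjusted p = 0.0302) was not called with DESeq2 or in 5 of 7 fits without 1 library. *Mcm2* and *Ccnd1* were called in all 7. Without WT replicate 4, 5 members were called in place of 3. *Ccnd2* was at −0.23 ± 0.08 and missed the threshold (adjusted p = 0.0648).

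In Zeb1_200H, *Mcm2* was the 1 called of 34 members, where 12.2 percent of all genes were called, and the members' median was 0.07. It was lost without WT replicate 2 or 3 or Zeb1_200H replicate 4, and a second member was called without WT replicate 4 or Zeb1_200H replicate 3. The comparison of Zeb1_200M with Zeb1_200H called none of 32 by either tool (2 at an unadjusted p under 0.05), with 0.121 percent of all genes called. Among the 106 other cell cycle genes, 61 were tested in Zeb1_200M against WT, 8 were lowered and 1 raised. *Cdk4* was at −0.64, *Pkmyt1* at −1.30 and *E2f3* at 0.83. Macrophage markers summed to 98.2 to 125 CPM in older WT and 133 to 188 CPM in Zeb1_200M pituitaries, and 3 of 8 were raised. Hypothalamus markers summed to 5.52 to 7.73 CPM in WT and 11.7 to 14.9 CPM in Zeb1_200M, and oligodendrocyte precursor markers to 15.0 to 25.1 CPM and 29.2 to 34.2 CPM. By WT means *Oxt* led the hypothalamus list at 3.8 CPM, and 6 of its markers were under 1 CPM. *Pdgfra* led the precursor list at 11.5 CPM, with 3 of 6 under 1 CPM, and stood at 181 CPM in older WT ovary. The hormone and lineage markers summed to 287300 to 330500 CPM in WT and to 163900 to 208800 CPM in Zeb1_200M, and 3 of 10 were lowered and 1 raised. *Prl* alone had a WT mean of 196000 CPM. Their part was not tested.

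The young ovary went the other way. In Zeb1_200M against WT, 7 members were raised and 2 lowered of 45, all of which passed the filter, where 2.58 percent of all genes were called and 0.878 percent were raised. All 40 members other than the inhibitors and D cyclins lay above 0, with a median of 0.45, and the median over all 45 was 0.41. Of the 45, 32 had an unadjusted p under 0.05. The sizes were small next to those in the pituitary, with the largest positive value of the 45 at 0.60 (*Cdc20*, not called).

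The 4 raised members of smallest p were *Cenpe*, *Kif23*, *Ccnb2* and *Cdk1*. *Cenpe*, the kinetochore motor, stood at 25.3, 27.9, 29.2 and 32.0 CPM in WT, at 31.3, 32.5, 39.97 and 51.1 CPM in Zeb1_200H and at 35.5, 43.7, 44.1 and 44.6 CPM in Zeb1_200M (0.57 ± 0.10, adjusted p = 0.0143). *Kif23*, a motor of cytokinesis, stood at 16.3, 21.9, 22.7 and 22.8 CPM in WT and at 28.3, 29.6, 31.5 and 31.5 CPM in Zeb1_200M (0.55 ± 0.11, adjusted p = 0.0224). Neither had overlap between WT and Zeb1_200M, while the Zeb1_200H values of both reached into both ranges or past them.

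*Ccnb2*, cyclin B2, stood at 14.8, 14.9, 17.0 and 17.96 CPM in WT and at 19.7, 21.2, 25.9 and 26.9 CPM in Zeb1_200M (0.55 ± 0.13, adjusted p = 0.0348). *Cdk1*, the kinase of mitosis, stood at 13.8, 14.1, 14.5 and 16.4 CPM in WT, at 12.4, 13.4, 17.7 and 24.5 CPM in Zeb1_200H and at 17.5, 21.5, 23.1 and 23.4 CPM in Zeb1_200M (0.56 ± 0.13, adjusted p = 0.0385). The Zeb1_200M ranges lay above WT for both. *Top2a* (0.48), *Foxm1* (0.50) and *Cenpf* (0.46) were the other raised members, *Cenpf* at an adjusted p of 0.04991. *Mki67* stood at 152, 201, 207 and 214 CPM in WT and at 219, 228, 257 and 301 CPM in Zeb1_200M, without overlap, but missed the threshold (0.39 ± 0.11, adjusted p = 0.0865).

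Replication genes had smaller fold changes than mitotic ones by their medians. None of the 10 licensing and replication genes was called, with a median of 0.30, against medians of 0.46 over the 9 mitotic cyclins, kinases and checkpoint genes and 0.48 over the 11 spindle, kinetochore and chromosome genes. *Mcm5* stood at 17.7, 27.6, 29.9 and 30.1 CPM in WT and at 31.9, 32.3, 33.0 and 35.9 CPM in Zeb1_200M (0.36 ± 0.14, not called). *Pcna* had overlapping values of 22.8 to 31.2 CPM in WT and 24.8 to 31.5 CPM in Zeb1_200M. *Ccnd2* stood at 483 to 574 CPM in WT and 395 to 539.5 CPM in Zeb1_200M, and *Ccnd1* at 39.5 to 51.2 and 34.7 to 45.9 CPM, all overlapping.

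**Figure D4:**
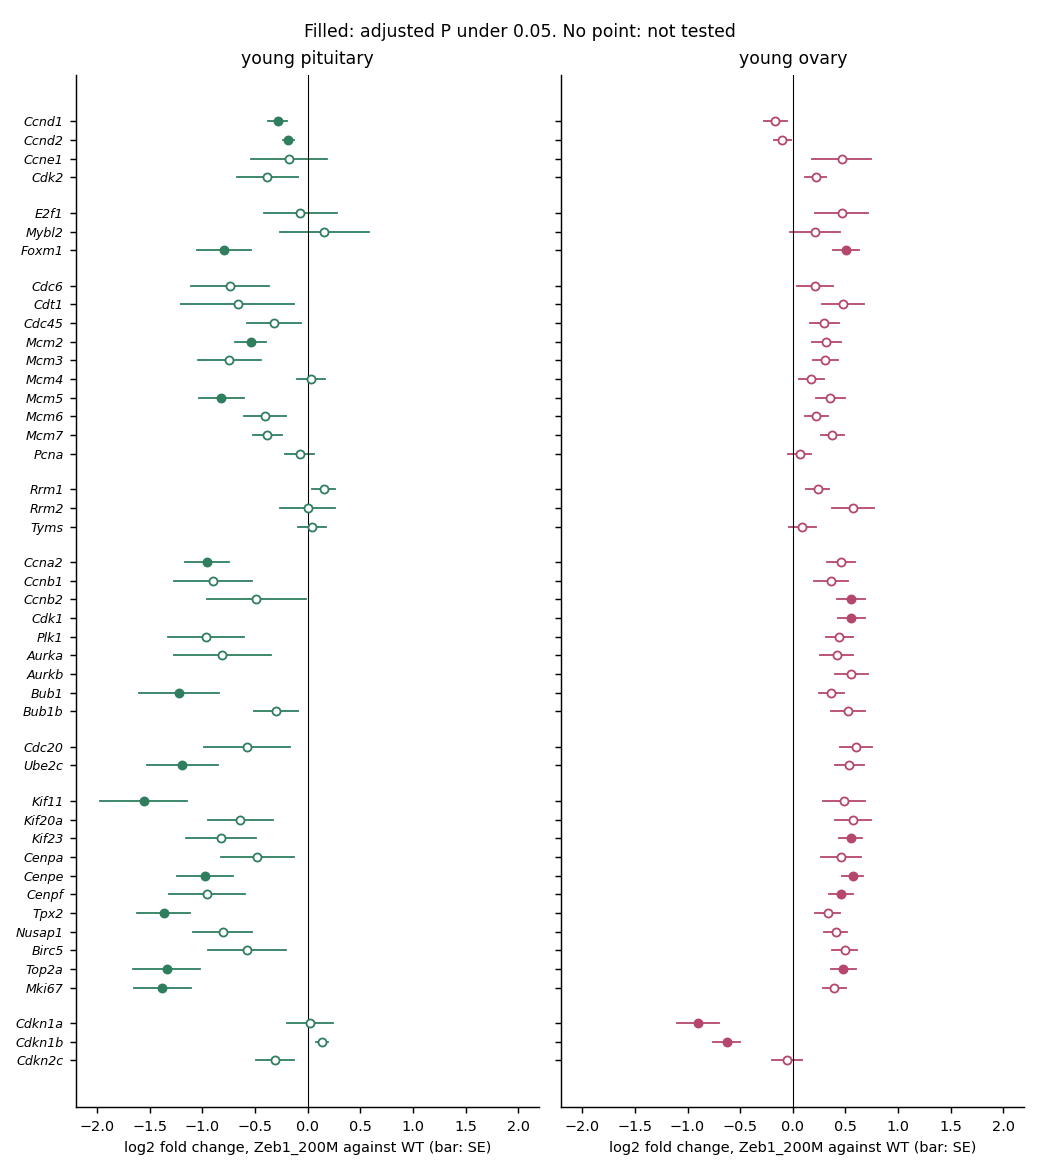
Log2 fold change of each member in Zeb1_200M against WT in young pituitary (left) and young ovary (right), in role order, with bars of 1 SE; filled points have an adjusted p under 0.05, and members without a point were not tested. Most pituitary points lie left of 0 and most ovary points right of it, with *Cdkn1a* and *Cdkn1b* on the left in the ovary.

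The lowered members of the young Zeb1_200M ovary were 2 inhibitors. *Cdkn1b*, the p27 gene, stood at 341, 348, 434 and 482 CPM in WT, at 249.6, 277, 318 and 348 CPM in Zeb1_200H and at 211, 230.4, 250 and 338 CPM in Zeb1_200M (−0.63 ± 0.13, adjusted p = 0.0218). *Cdkn1a*, the p21 gene, stood at 16.9, 17.5, 17.96 and 19.98 CPM in WT, at 5.95, 9.40, 11.6 and 14.1 CPM in Zeb1_200H and at 6.84, 7.01, 8.92 and 15.1 CPM in Zeb1_200M (−0.90 ± 0.20, adjusted p = 0.0322). Every Zeb1_200M value of both genes was below every WT value, and for *Cdkn1a* so was every Zeb1_200H value. *Cdkn2c*, the p18 gene, was not called (−0.05 ± 0.14, with WT at 15.2 to 21.2 CPM and Zeb1_200M at 13.6 to 19.0 CPM).

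These calls leaned on single libraries and on the fit. Without WT replicate 1, whose 40 members other than inhibitors and D cyclins summed to 996 CPM against 1248 to 1369 CPM in the other WT ovaries, no member was called, and none without Zeb1_200M replicate 1. The count was 1 without Zeb1_200M replicate 3, 2 without WT replicate 3 or 4, 3 without Zeb1_200M replicate 4, and 23 without Zeb1_200M replicate 2, whose members summed to 1372 CPM against 1562 to 1841 CPM in the other Zeb1_200M ovaries. With all 3 genotypes in one fit it was 0, and with DESeq2 16. The sign of each called member was the same in all of these fits.

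In Zeb1_200H against WT none of the 45 was called by edgeR or DESeq2 (8 at an unadjusted p under 0.05), with a median of 0.20 and 0.00510 percent of all genes called. In Zeb1_200M against Zeb1_200H none was called by either tool (2 at an unadjusted p under 0.05), with a median of 0.18 and 0 percent of all genes called. Summed over the 40 members, Zeb1_200H ovaries held 1164 to 1809 CPM, across the whole span from WT (996 to 1369) to Zeb1_200M (1372 to 1841).

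Of the 105 other cell cycle genes tested in the young Zeb1_200M ovary, 10 were raised and none lowered, with a median of 0.37, among them *Cdc25b*, a phosphatase that activates CDK1, at 0.66, the condensin gene *Ncapd2* at 0.49 and *Prc1*, a protein of the midzone, at 0.54. Of 47 histone genes by symbol, 9 were raised and 1 lowered, with a median of 0.62, with *H4c4* at 0.56 and *H1f4* at 0.69. Cell type markers moved in these ovaries too. All 10 luteal markers were below 0 with a median of −1.11, and 4 were lowered, among them *Akr1c18*, which breaks down progesterone, at −3.49. They summed to 8114 to 11070 CPM in WT and 5328 to 9540 CPM in Zeb1_200M. The highest Zeb1_200M sum, 9540 CPM, was in replicate 2, which also had the lowest summed level of the 40 members in that group. Of 11 granulosa cell markers 1 was raised, at summed levels of 4984 to 6564 CPM in WT and 4597 to 7190 CPM in Zeb1_200M. Of 9 tested oocyte markers none was called, and all 9 lay above 0, with sums of 263 to 375 CPM in WT and 310.0 to 504 CPM in Zeb1_200M. No marker of these 3 lists was at 0 in all young ovaries. Their part in the results on the members was not tested.

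In the older ovary the 40 members other than inhibitors and D cyclins showed no common direction in Zeb1_200M against WT, with 21 above and 19 below 0 and a median of 0.01. One member of 45 was called, *Cdkn1a*, where 2.71 percent of all genes were called. *Cdkn1a* (ENSMUSG00000023067, chr17:29090976-29100727 in mm10) stood at 25.7, 43.6, 58.3 and 72.1 CPM in WT, at 37.7, 40.6, 95.1 and 118 CPM in Zeb1_200H and at 13.9, 14.7, 16.1 and 23.4 CPM in Zeb1_200M. All 4 values of Zeb1_200M were below all 8 others. The log2 fold change was −1.54 ± 0.30 against WT (adjusted p = 0.0346) and −2.11 ± 0.40 against Zeb1_200H (adjusted p = 0.0387), where *Cdkn1a* was again the 1 called of 45 and 1.61 percent of all genes were called.

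*Cdkn1b* stood at 112, 194, 249 and 260.3 CPM in WT, at 132, 159, 168 and 187 CPM in Zeb1_200H and at 105, 111, 122 and 123 CPM in Zeb1_200M, overlapping WT by 1 library, and missed the threshold (−0.81 ± 0.24, adjusted p = 0.1160). *Mki67* stood at 101, 109.5, 142 and 165 CPM in WT and at 105, 114, 130.2 and 149 CPM in Zeb1_200M, with full overlap. The call on *Cdkn1a* against WT was lost with all 3 genotypes in one fit (adjusted p = 0.0535) and in 6 of 8 fits without 1 library, those without WT replicate 1, 2 or 4 or Zeb1_200M replicate 1, 2 or 4. Against Zeb1_200H it was lost without Zeb1_200H replicate 1 or 2 or Zeb1_200M replicate 1, 2 or 4. DESeq2 called 2 members in both comparisons. In Zeb1_200H against WT none of 45 was called by either tool, none at an unadjusted p under 0.05, and 0 percent of all genes were.

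**Figure D5:**
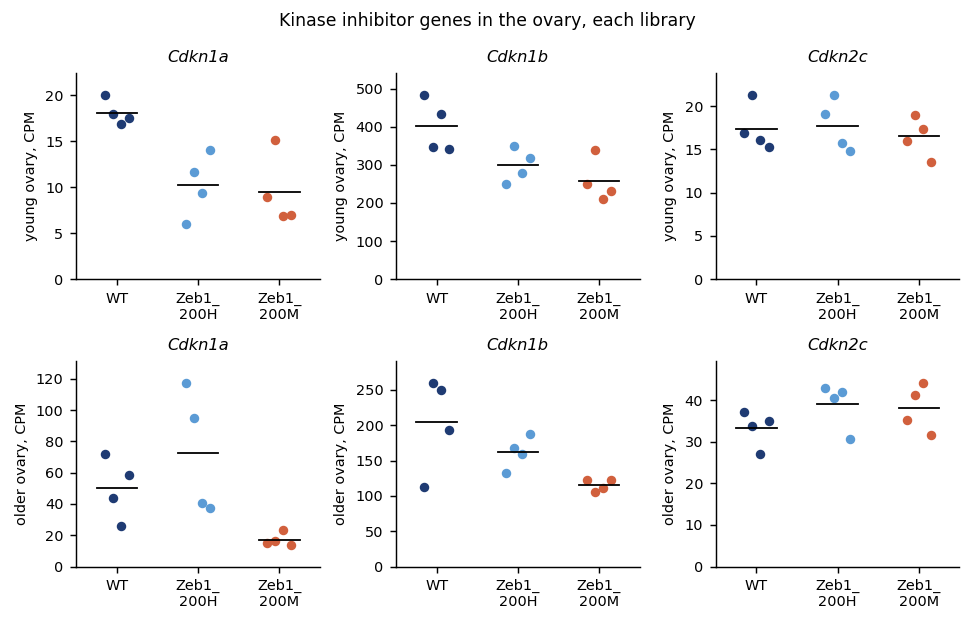
CPM of *Cdkn1a*, *Cdkn1b* and *Cdkn2c* in each ovary of the young (top) and older (bottom) cohort, each axis starting at 0; points are libraries and bars are group means. *Cdkn1a* has every Zeb1_200M point below every WT point in both cohorts, and *Cdkn2c* overlaps in both.

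Other inhibitors were given as a list of 5 in the older ovary. *Cdkn1c*, the p57 gene, was raised, with a log2 fold change of 3.38, and *Cdkn2b*, the p15 gene, was lowered in Zeb1_200M against WT, with a log2 fold change of −3.69. All 10 luteal markers were below 0 there with a median of −2.67, and 5 were lowered, with *Sfrp4* at −6.68, *Runx2* at −3.67 and *Ptgfr* at −7.37. They summed to 15090 to 39760 CPM in WT, 18300 to 31800 CPM in Zeb1_200H and 5468 to 13790 CPM in Zeb1_200M. Lymphocyte markers summed to 9.53 to 13.8 CPM in WT and 62.3 to 100.2 CPM in Zeb1_200M, and 3 of 9 were raised. Macrophage markers summed to 247.5 to 469 CPM in WT and 485 to 935 CPM in Zeb1_200M, with none of 8 called. The luteal sums of Zeb1_200M lay below those of all other older ovaries, as did the *Cdkn1a* values. The part of these markers was not tested.

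In the hypothalamus no member was called in any of the 6 comparisons by edgeR or DESeq2. In the young cohort 14, 13 and 14 members could be tested for Zeb1_200M against WT, Zeb1_200H against WT and Zeb1_200M against Zeb1_200H, with 1, 2 and 2 at an unadjusted p under 0.05 and 0.0200, 0.0202 and 0 percent of all genes called. In the older cohort 38, 36 and 39 could be tested, with 0, 1 and 3 at an unadjusted p under 0.05 and 0.00622, 0 and 0 percent of all genes called. The medians lay between −0.07 and 0.07. The summed level of the 40 members in older Zeb1_200M hypothalamus, 163.7 to 165.6 CPM, lay just above that of WT, 154.8 to 159.7 CPM, while Zeb1_200H spanned 154.1 to 169.7 CPM. Young hypothalamus was the shallowest set, and *Mki67* had 1 to 13 reads per library. Changes of its level were not detectable at this depth.

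The Zeb1_200M effects in pituitary and ovary were compared by a test of their difference. It asks whether the effects differ and not whether their signs are opposite. In the young cohort, of the 43 members that passed the filter in both tissues, 20 had a lower effect in the pituitary and 1, *Cdkn1b*, a higher one (0.77), with a median difference of −1.06, where 10.1 percent of all genes were called and 4.45 percent were lower. By role, 10 of the 11 spindle, kinetochore and chromosome genes were among the 20, and 4 of 7 mitotic cyclins, kinases and checkpoint genes, 4 of 10 licensing genes, *Ube2c* and *Foxm1*. The differences were −1.84 for *Top2a*, −1.78 for *Mki67* and −2.04 for *Kif11*, which rests on 4 to 24 reads per pituitary. *Kif11* is counted in the 20, though it passed the pituitary filter through its WT libraries. *Cdk1* (−2.07) and *Aurkb* (−1.64) entered this fit through their ovary counts, with 3 to 23 and 4 to 16 reads per pituitary, and are left out of the 20. Without 1 library the number of calls ran from 17 to 28, lowest without the WT pituitary whose number matches no title, and *Ccnb1* was kept in 4 and *Birc5* in 5 of 15 such fits. Among other cell cycle genes, 44 of 105 had a lower effect in the pituitary and 1 a higher one. In the older cohort *Mcm2* had a lower effect in the pituitary (−0.67), and *Cdkn1a* (1.61) and *Cdkn1b* (1.05) a higher one, where 5.77 percent of all genes were called. Of 15 fits without 1 library, the call on *Mcm2* held in 15, that on *Cdkn1a* in 11 (lost without pituitary WT replicate 2 or 3 or Zeb1_200M replicate 2 or 3) and that on *Cdkn1b* in 1, the fit without ovary WT replicate 1.

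Between cohorts no member's Zeb1_200M effect differed past the threshold. In the pituitary 0 of 43 were called by edgeR or DESeq2 (3 at an unadjusted p under 0.05), with a median older minus young difference of 0.36 and 0.0273 percent of all genes called. In the ovary 0 of 45 were called by either tool (11 at an unadjusted p under 0.05), with a median of −0.39, all 40 members other than inhibitors and D cyclins below 0, and 0.197 percent of all genes called. In the hypothalamus 0 of 32 were called by either tool (4 at an unadjusted p under 0.05), and 0.154 percent of all genes were. The cohorts differ in method as well.

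Set against the promoter letters, the 15 members with TTTGAA had medians farther from 0 than those without it in both tissues. In the young Zeb1_200M pituitary the 14 tested had a median of −0.82 and lay between −1.56 and −0.30, with 5 lowered. The value of −1.56 was that of *Kif11*, which passed the filter through the WT libraries. The 22 with a window lacking it had a median of −0.38 and lay between −1.22 and 0.16, with 3 lowered. In Zeb1_200H the medians were −0.93 and −0.23. In the young Zeb1_200M ovary they were 0.48, with 5 of 15 raised, and 0.33, with 1 of 22 raised and 2 lowered. The 11 tested with an E2F core had a median of −0.67 in the young Zeb1_200M pituitary, against −0.54 for the 25 without. The 27 tested with CCAAT had a median of −0.58 there, with 8 lowered, against −0.18 for the 9 without, with 0 lowered. In the young Zeb1_200M ovary the CCAAT medians were 0.40 and 0.41. The lowered *Tpx2*, *Ccna2*, *Foxm1*, *Ccnd1* and *Ccnd2* had no window and are in none of these groups. The letters follow the roles of the genes, mitotic genes holding TTTGAA and licensing genes the E2F core. Of the 3 members with CAGGTG, *Tyms* was at 0.04, *Cdkn1a* at 0.02 and *Nusap1* at −0.81 in the young Zeb1_200M pituitary, none of them called. In the young Zeb1_200H pituitary *Nusap1* was lowered (−0.93), and in the young Zeb1_200M ovary *Cdkn1a* was lowered (−0.90).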

How the data were processed

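Total RNA of pituitary, hypothalamus and ovary was sequenced as RNA-seq. The deposited count values are whole-number reads per gene that the authors made by aligning reads to mm10 with STAR 2.7.1a and counting them with featureCounts (GENCODE basic annotation, young cohort by strand, older ovary without strand) or with htseq-count 0.9.1 without strand (Ensembl annotation, older pituitary and hypothalamus). Per the file headers the tables also hold the authors' normalized values, fold changes and p-values, which were not used. Of 138 count columns, 3 repeated WT columns of a young pituitary table were not used. One young WT pituitary column carries a number that matches no sample title. The methods call the replicates different mice.

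Groups were taken from the sample labels. The 66 libraries listed in 2 tables had 0 differing values, and replicates differed beyond sampling noise (lowest chi-square per degree of freedom 1.87 over 99 pairs). Gene names were paired with 99.54 percent of identifiers. Genes were filtered with filterByExpr, scaled by TMM and tested with edgeR 4.0.16 (R 4.3.3), quasi-likelihood F-test, Benjamini-Hochberg adjustment over all genes tested, threshold 0.05, each pair of genotypes fitted alone. Tissues of young WT mice were compared likewise, and differences of the Zeb1_200M effect were tested as interaction terms over genes shared by both tables. The labels do not say whether libraries of different tissues came from the same mice, and these fits held no term for the mouse. The fits were tested on simulated data. Alternatives were DESeq2 1.42.0, RLE scaling, no filter on low counts, all 3 genotypes in one fit, the replicate number as a block, and leaving out each library in turn. Exon lengths and overlaps came from a GENCODE annotation of mm10. Promoters were RefSeq windows.

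The members and all gene lists were chosen with earlier results of these data known. Named are all called members, up to 4 raised and 4 lowered with every library's value, index genes such as *Mki67*, and up to 3 called genes of smallest p per other list. *H1f0* was named after its values were seen. Lists were described by counts and medians, without a set test.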

Additional observations from a re-analysis of the deposited data

Results flagged for a closer look

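In 23 of the 45 members the effect of the Zeb1_200M genotype differed between young pituitary and young ovary by the test of the interaction (log2, pituitary minus ovary). Of all genes tested, 10.1 percent were called and 4.45 percent were lower in the pituitary. The 20 lower and 1 higher effects counted in Results leave out *Cdk1* and *Aurkb*, which are listed here. The differences were −2.07 for *Cdk1*, −2.04 for *Kif11*, −1.84 for *Top2a*, −1.78 for *Mki67*, −1.75 for *Ube2c*, −1.71 for *Tpx2*, −1.64 for *Aurkb*, −1.60 for *Bub1*, −1.54 for *Cenpe*, −1.43 for *Cenpf*, −1.43 for *Plk1*, −1.42 for *Ccna2*, −1.37 for *Kif23*, −1.30 for *Foxm1*, −1.27 for *Ccnb1*, −1.22 for *Nusap1*, −1.21 for *Kif20a*, −1.18 for *Mcm5*, −1.08 for *Birc5*, −1.06 for *Mcm3*, −0.86 for *Mcm2*, −0.75 for *Mcm7* and 0.77 for *Cdkn1b*. The smallest adjusted p of edgeR's quasi-likelihood test was 0.0003486 (*Tpx2*) and the largest 0.0428 (*Ccnb1*). *Cdk1* and *Aurkb* were under the filter on low counts in the pituitary alone and entered through the ovary, so their values rest on 3 to 23 and 4 to 16 reads per pituitary. That of *Kif11* rests on 4 to 24 reads per pituitary. The call was kept in 4 (*Ccnb1*) and 5 (*Birc5*) of 15 fits without 1 library, and that on *Birc5* was lost with no filter. In the older cohort the difference was 1.61 for *Cdkn1a*, 1.05 for *Cdkn1b* and −0.67 for *Mcm2*, where 5.77 percent of all genes were called.

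Of 180 groups of 4 libraries tested for 11 index genes and for the summed level of 40 members, 12 had a library standing apart from the other 3, where chance gives about 1 in 20. In the pituitary these were *Ccnd2* in young Zeb1_200M replicate 2 (954 CPM against 882 to 887), *Top2a* in older WT replicate 3 (3.40 CPM against 1.53 to 1.84) and *Ccnb1* in older WT replicate 2 (0.0876 CPM, the others at 0). In the older ovary they were *Ccnd1* in Zeb1_200M replicate 3 (116 CPM against 25.1 to 37.7) and in WT replicate 1 (65.5 CPM against 24.8 to 28.2), and *Cdk1* in Zeb1_200M replicate 2 (59.6 CPM against 33.0 to 35.9). In the young hypothalamus they were *Ccnb1* in Zeb1_200H replicate 2 (0.251 CPM, the others at 0) and in Zeb1_200M replicate 2 (0.252 CPM, the others at 0), *Cdkn1b* in Zeb1_200H replicate 4 (141 CPM against 100.2 to 107), *Cdkn2c* in Zeb1_200H replicate 3 (0.302 CPM against 1.26 to 1.45) and *Top2a* in WT replicate 2 (0.264 CPM against 1.02 to 1.07). In the older hypothalamus *Cdkn1b* stood at 47.9 CPM in WT replicate 1 against 41.5 to 42.4 in the others. Several of these rest on 1 to 5 reads.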

How the results depend on the processing

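Under up to 5 other settings, 142 of 185 values of called members stayed past the threshold in the same direction in the genotype comparisons, 77 of 78 in the differences of effects and 448 of 452 in the comparisons of WT tissues, and 0 reversed. Without 1 library, 140 of 271 such values stayed past the threshold in the genotype comparisons, 340 of 390 in the differences between tissues or cohorts, and 827 of 830 in the comparisons of WT tissues. The number of called members in young ovary Zeb1_200M against WT, 9, became 16 with DESeq2, 18 with no filter, 0 with all 3 genotypes in one fit and 1 with the replicate block, and 0 to 23 without 1 library. In older ovary *Cdkn1a* was the 1 called. The count became 2 with DESeq2, 0 with all 3 genotypes in one fit, 0 with the replicate block and 0 to 1 without 1 library against WT, and 2, 1, 0 and 0 to 1 against Zeb1_200H. With no filter 2 were called in older pituitary Zeb1_200H against WT, and 1 each in young ovary Zeb1_200H against WT and in older hypothalamus Zeb1_200M against WT and against Zeb1_200H. Without 1 library the counts ran from 6 to 18 in young pituitary Zeb1_200M (13 with all), 2 to 10 in Zeb1_200H (9), 2 to 5 in older pituitary Zeb1_200M (3), 0 to 2 in Zeb1_200H (1), and 1 to 3 in the older pituitary minus ovary difference (3). The cause was not tested. The replicate block, which also left out the WT library of unmatched number, gave 9 called members in young pituitary Zeb1_200M and 7 in Zeb1_200H. RLE scaling changed no count.

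In no tissue and cohort did all same-numbered libraries deviate together. Correlations of their deviations ran from −0.648 to 0.45, and over 0.1 were 1 of 8 in young pituitary, 3 of 12 in young ovary, 1 of 12 in young hypothalamus, 1 of 10 in older pituitary, 6 of 12 in older ovary and 1 of 10 in older hypothalamus. A library correlated best with its own number in 2 of 10 young pituitary, 2 of 12 young ovary, 5 of 12 young hypothalamus, 2 of 11 older pituitary, 4 of 12 older ovary and 2 of 11 older hypothalamus libraries. So the block was not used in the report. Depth limits young hypothalamus most, where 21 members had WT means under 1 CPM, then older pituitary and older hypothalamus with 10 each.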
